A study of Glycine max with 6 samples.

Results

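LATE ELONGATED HYPOCOTYL (LHY) and CIRCADIAN CLOCK ASSOCIATED 1 (CCA1) are the morning transcription factors of the plant circadian clock. The 6 soybean (Glycine max) gene models whose protein descriptions name LHY, CCA1 or late elongated hypocotyl were followed here, out of 36827 in the deposited tables. RNA had been sequenced from trifoliolate leaves of plants at day 30 after germination. There were 3 libraries labelled GmRAV1-ox, with GmRAV1 as the genotype, and 3 labelled DN50, the wild type. The labels do not explain the suffix "ox", read here as overexpression, and name no promoter, transformation line, time of day of the harvest or separate plants behind the replicates. The p-values below therefore measure only the spread between these libraries, which may be technical.

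In Arabidopsis, LHY and CCA1 are closely related MYB-like DNA-binding proteins whose transcripts peak around dawn. They repress evening genes such as TOC1 and the members of the evening complex (ELF3, ELF4 and LUX), and the daytime pseudo-response regulators (PRRs) repress LHY and CCA1 in turn. CCA1 was first described as a protein that binds a promoter of a light-harvesting chlorophyll a/b-binding (CAB) gene. The levels of all these transcripts swing over the day, so that any one harvest catches them at a single phase.

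Each library held 7208496 to 7684540 estimated counts. None of the 3 RAV genes that could be tested was called. These were Glyma01g22260.1, Glyma02g11060.1 and Glyma10g34760.1, and their log2 fold changes lay between -0.26 and -0.04. Another RAV gene, Glyma20g32730.1, had too few counts to test, with 12, 23 and 2 in the libraries labelled GmRAV1-ox, against 1, 4 and 3 in DN50, and its groups overlapped. Directions below rest on the labels alone. On the first principal component, with 62.6% of the variance, DN50 replicate 2 (-10.3) and replicate 3 of the libraries labelled GmRAV1-ox (-16.6) lay between the remaining libraries. Leaf markers were abundant: 38 mesophyll markers (rubisco small subunit, rubisco activase, glycolate oxidase and CAB proteins) summed to between 108900 and 151600 FPKM in the libraries labelled GmRAV1-ox, against 111900 to 156400 FPKM in DN50. The single shoot meristem marker found in the tables reached at most 0.19 FPKM in the libraries labelled GmRAV1-ox and was listed at 0 in DN50. The 5 guard cell markers summed to 20.1 to 29.4 FPKM in the libraries labelled GmRAV1-ox, against 13.58 to 18.98 FPKM in DN50. The 7 phloem markers summed to 14.1 to 17.1 FPKM in the libraries labelled GmRAV1-ox, against 17.1 to 22.5 FPKM in DN50. The 7 root and nodule markers summed to 736 to 1278 FPKM in the libraries labelled GmRAV1-ox, against 832 to 1324 FPKM in DN50, and the 2 flower markers to 0.61 to 1.64 FPKM in the libraries labelled GmRAV1-ox, against 1.59 to 3.08 FPKM in DN50. Only the guard cell sums lay apart between the groups. All mesophyll and guard cell markers, 4 of the phloem markers and 3 of the root and nodule markers could be tested, and none passed. The flower and shoot meristem markers had too few counts to test. The part of these cell types in the results below was not tested. In whole leaves, fewer cells that express a gene and less RNA per cell cannot be told apart.

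The descriptions fit some of the 6 genes better than others. In the authors' deposited table, Glyma16g01980.3, Glyma19g45030.1 and Glyma07g05410.1 had the KEGG orthology group LHY as first hit, with alignment bit scores of 546, 542 and 538. Their coding lengths were 2253, 2250 and 2313 bases. The remaining members had much lower best scores in the authors' deposited table, 156 for Glyma09g29800.2 (described as CCA1), 152 for Glyma18g05050.1 (described as LHY) and 147 for Glyma16g34340.1 (described as CCA1). These 3 genes were also shorter, at 1401, 1086 and 1434 bases. The Glycine_max_v4.0 gene table gives Glyma19g45030.1 the symbol LCL3, with the synonym GmLHY2a, through its protein accession. Through their nearest matched neighbours, Glyma16g01980.3 corresponded to LCL1 (GmLHY1a) and Glyma07g05410.1 to LCL4 (GmLHY1b). The 3 lower-scoring genes carry no LHY or CCA1 symbol there, so that their names rest on the protein descriptions. Whether they belong to LHY and CCA1 proper or to the related REVEILLE branch of the family was not tested. A further gene of the LHY type, Glyma03g42260.4, is described as MYB114 and so lies outside the 6. It carries the synonyms GmLHY2b and LCL2, and its bit score for the LHY group was 523 in the authors' deposited table. Identifiers place the 6 members on chromosomes 7, 9, 16 (a pair), 18 and 19.

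Levels differed widely among the 6 genes. FPKM, the fragment count divided by coding length and library total, allows a comparison between genes. In the libraries labelled GmRAV1-ox, Glyma16g01980.3 was highest, with a mean of 13.2 FPKM. Glyma07g05410.1 (5.34), Glyma09g29800.2 (3.66), Glyma16g34340.1 (1.73), Glyma18g05050.1 (1.34) and Glyma19g45030.1 (1.22) followed. In DN50 the order was Glyma16g01980.3 (35.1 FPKM), Glyma09g29800.2 (19.7), Glyma07g05410.1 (11.1), Glyma19g45030.1 (6.08), Glyma16g34340.1 (4.93) and Glyma18g05050.1 (1.55). In the libraries labelled GmRAV1-ox, the ranges of Glyma07g05410.1 and Glyma09g29800.2 overlapped, although Glyma07g05410.1 was the higher of them within every library. The ranges of Glyma16g34340.1, Glyma18g05050.1 and Glyma19g45030.1 overlapped as well, and the order of neighbours among these 3 changed from library to library. In DN50, Glyma19g45030.1 and Glyma16g34340.1 were the sole neighbours with overlapping ranges, and their order also changed between libraries.

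Whether these 6 genes differed between the 2 genotypes was the main comparison. Of the 6 members, 2 fell in the libraries labelled GmRAV1-ox at an adjusted p under 0.05, and 0 rose. They were the LHY gene Glyma19g45030.1 and the CCA1-described gene Glyma09g29800.2. By edgeR's quasi-likelihood test over 26272 genes, 0.579% of all tested genes were called lower. In 5 of the 6 members all 3 libraries labelled GmRAV1-ox lay below all 3 DN50 libraries, which held for 7.88% of tested genes. The same 5 had an unadjusted p under 0.05 in the lower direction, as did 10.7% of tested genes. The median log2 fold change was -1.63 over the 6 members and 0.01 over all tested genes. Without library scaling these medians were -1.45 and 0.20.

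**Figure D1:**
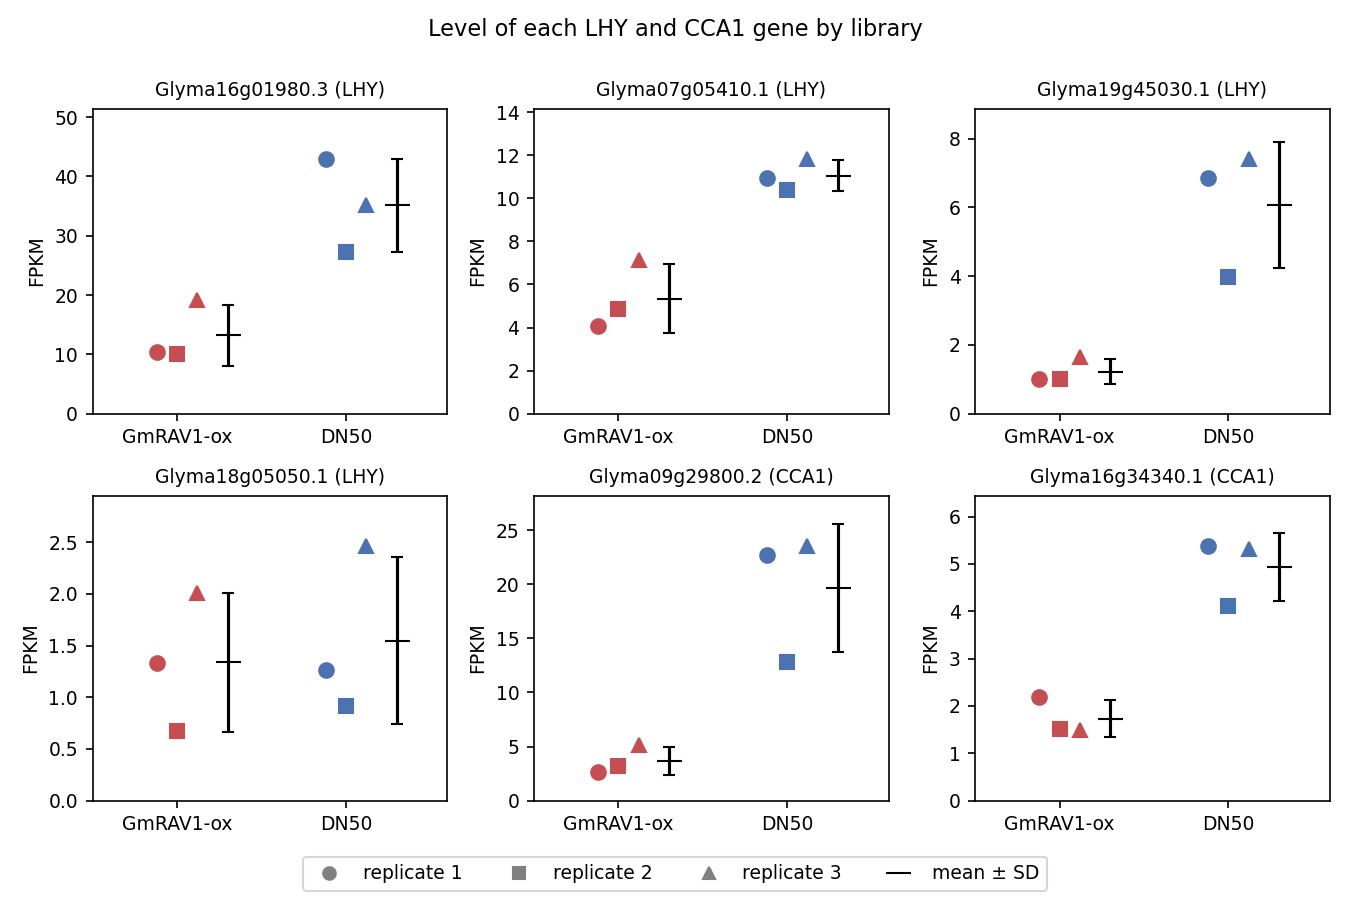
FPKM of each LHY and CCA1 gene, with GmRAV1-ox on the left and DN50 on the right of each panel. Symbols are single libraries and bars the mean ± SD (n = 3 each); the groups are apart in every panel except that of Glyma18g05050.1.

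The LHY gene Glyma19g45030.1 (LCL3) had 1.00, 1.01 and 1.64 FPKM in the libraries labelled GmRAV1-ox replicates 1 to 3, against 6.86, 3.99 and 7.40 FPKM in DN50 replicates 1 to 3. The highest library labelled GmRAV1-ox lay well below the lowest DN50 library. Its counts summed to 58 in the libraries labelled GmRAV1-ox and 303 in DN50. The fall was 5.62-fold (95% interval 3.17 to 9.96), or -2.49 ± 0.36 (SE) on the log2 scale, at an edgeR adjusted p of 0.0363.

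The CCA1-described gene Glyma09g29800.2 had 2.65, 3.20 and 5.14 FPKM in the libraries labelled GmRAV1-ox, against 22.69, 12.85 and 23.50 FPKM in DN50. The groups did not overlap, and the lowest DN50 library was again replicate 2. The fall was 6.03-fold (3.33 to 10.9), or -2.59 ± 0.37 (SE) on the log2 scale, at an edgeR adjusted p of 0.0383.

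Glyma16g01980.3 (LCL1), the most abundant of the LHY genes, had 10.46, 10.02 and 19.19 FPKM in the libraries labelled GmRAV1-ox, against 42.87, 27.17 and 35.24 FPKM in DN50. Replicate 3 of the libraries labelled GmRAV1-ox stood well above the other pair, yet stayed below every DN50 library. The estimate was 2.98-fold lower (1.65 to 5.37) and did not pass the test (-1.57 ± 0.37 on the log2 scale, edgeR adjusted p 0.0998). Glyma07g05410.1 (LCL4), another LHY gene, had 4.06, 4.84 and 7.12 FPKM in the libraries labelled GmRAV1-ox, against 10.95, 10.39 and 11.81 FPKM in DN50. Its DN50 libraries lay close together and above all 3 of the others. The estimate was 2.31-fold lower (1.52 to 3.52; -1.21 ± 0.26 on the log2 scale, edgeR adjusted p 0.0862), which also missed the threshold.

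The second CCA1-described gene, Glyma16g34340.1, had 2.19, 1.51 and 1.5 FPKM in the libraries labelled GmRAV1-ox, against 5.37, 4.11 and 5.32 FPKM in DN50. The groups did not overlap. Replicates 2 and 3 of the libraries labelled GmRAV1-ox were tied at 15 counts each, whereas replicate 3 was the highest of its group for the remaining 5 members. The estimate was 3.23-fold lower (2.02 to 5.17; -1.69 ± 0.30 on the log2 scale, edgeR adjusted p 0.0525), just short of passing.

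Glyma18g05050.1, described as LHY, stood apart from the rest. It had 1.33, 0.67 and 2.01 FPKM in the libraries labelled GmRAV1-ox, against 1.26, 0.92 and 2.46 FPKM in DN50. The groups overlapped, and replicate 3 was the highest library in each. Only 30 counts in the libraries labelled GmRAV1-ox and 36 in DN50 lay behind these values. The ratio of the groups was 0.787 (0.320 to 1.94; adjusted p 0.753 by edgeR), an interval that takes in falls and rises alike.

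**Figure D2:**
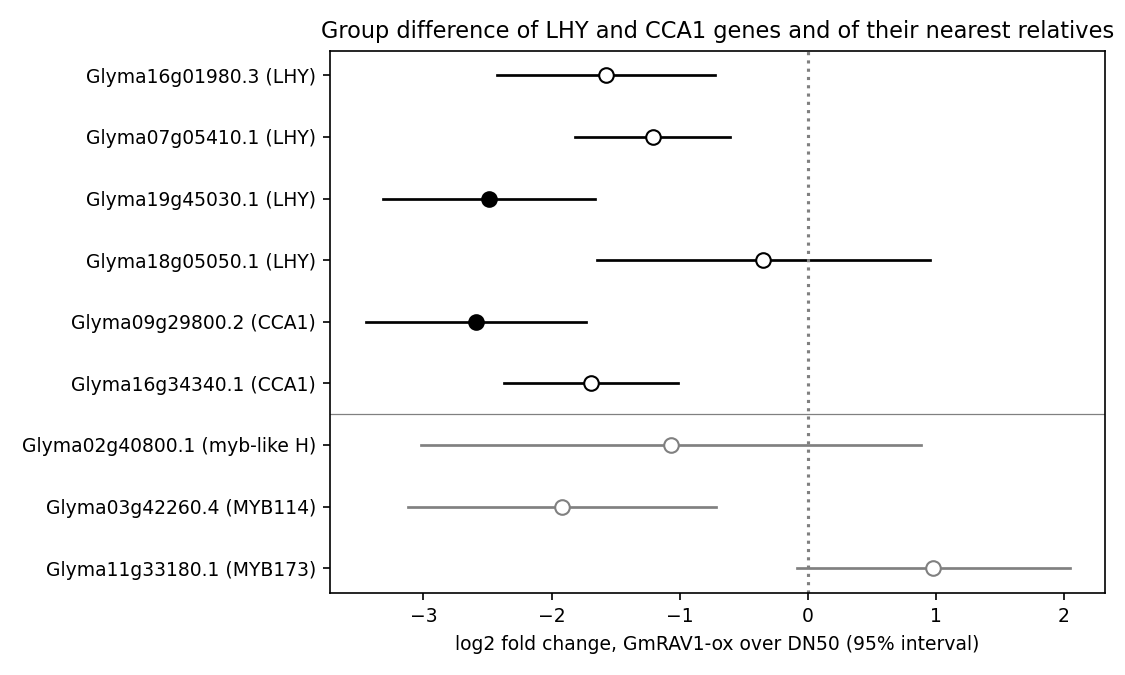
Log2 fold change of the libraries labelled GmRAV1-ox over DN50 with 95% intervals (lines) for the 6 members (black, above the grey line) and the 3 tested relatives outside the rule (grey). Filled points passed an adjusted p of 0.05 by edgeR; these are Glyma19g45030.1 and Glyma09g29800.2, and the intervals of 5 members lie below 0.

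These calls depended on which libraries entered the fit. Without DN50 replicate 1, DN50 replicate 3 or either of replicates 1 and 2 of the libraries labelled GmRAV1-ox, 0 members were called, with adjusted p of 0.133 to 0.222 for Glyma19g45030.1 and 0.148 to 0.222 for Glyma09g29800.2. In those fits edgeR called 0 of all tested genes, with 3290 to 3888 genes at an unadjusted p under 0.05. Log2 fold changes stayed between -2.87 and -2.31 for Glyma19g45030.1 and between -3.03 and -2.39 for Glyma09g29800.2 with each single library left out. Without DN50 replicate 2, the same 2 members were called (adjusted p 0.0351 for both), beside 0.545% of all tested genes. The 2 also kept their calls without library scaling and without robust estimation, beside 0.567% and 0.476% of all genes called lower. Without replicate 3 of the libraries labelled GmRAV1-ox, 5 members were called, all except Glyma18g05050.1, among 9.66% of all tested genes called lower. DESeq2 also called those 5, with adjusted p between 1.6e-07 (Glyma09g29800.2) and 0.00745 (Glyma07g05410.1), in a fit that called 3.43% of genes lower. Under limma on log2(FPKM + 1), Glyma09g29800.2 alone was called, beside 0.324% of all genes, and 0 members were called beside 0.0136% with no filter on low values. With the replicate number as a block, and without both DN50 replicate 2 and replicate 3 of the libraries labelled GmRAV1-ox (those nearest the other group), 5 members were called, beside 3.57% and 13.1% of all genes.

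Reads shared between gene copies bear on the level of each copy. The estimated counts of Glyma16g01980.3 and Glyma07g05410.1 were not whole numbers in any of the 6 libraries, but their sum was whole in each. The counting thus divided some reads between these 2 LHY genes, and the split between them is uncertain. Summed, the pair had 235, 238 and 422 counts in the libraries labelled GmRAV1-ox, against 917, 617 and 782 in DN50. In CPM scaled by library (TMM), the sum averaged 39.9 ± 18.3 in the libraries labelled GmRAV1-ox and 110.7 ± 27.5 in DN50 (SD, n = 3 each). That mean was 2.78-fold lower, and the groups did not overlap. The CCA1-described genes Glyma09g29800.2 and Glyma16g34340.1 likewise shared fractions of reads in 2 libraries. Their sum was 48, 46 and 65 counts in the libraries labelled GmRAV1-ox, against 292, 170 and 292 in DN50. The counts of Glyma19g45030.1 and Glyma18g05050.1 were whole in every library.

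The make-up of the summed transcript pool was read as the share of each gene. The 6 genes together had 21.7, 21.3 and 36.6 FPKM in the libraries labelled GmRAV1-ox, against 90.0, 59.4 and 85.7 FPKM in DN50. Glyma16g01980.3 gave the largest share of that sum in every library, 49.3% ± 2.79 in the libraries labelled GmRAV1-ox and 44.8% ± 3.36 in DN50 (SD, n = 3 each). The share of Glyma09g29800.2 was 13.8% ± 1.44 in the libraries labelled GmRAV1-ox and 24.7% ± 2.92 in DN50. The share of Glyma07g05410.1 was 20.3% ± 2.16 in the libraries labelled GmRAV1-ox and 14.5% ± 2.73 in DN50. The separate shares of Glyma16g01980.3 and Glyma07g05410.1 depend on the uncertain split of the reads they have in common.

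**Figure D3:**
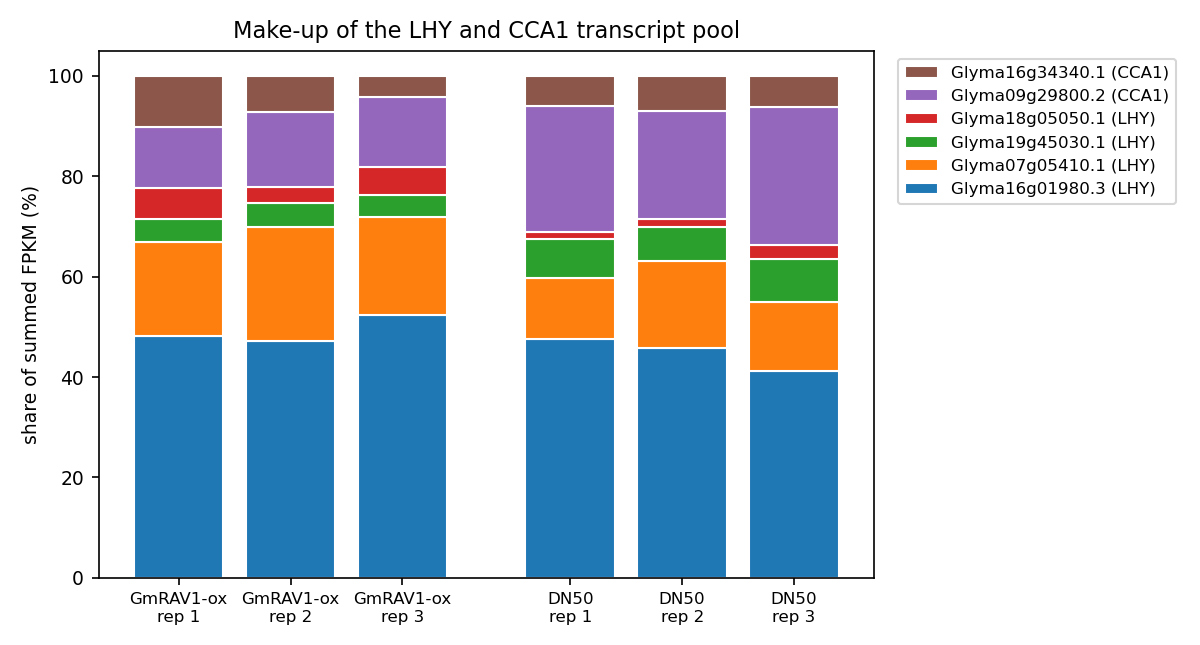
Share (%) of each gene in the summed FPKM of the 6 LHY and CCA1 genes, by library, with GmRAV1-ox on the left. The band of Glyma09g29800.2 is narrower in all 3 libraries labelled GmRAV1-ox (12.2% to 15.1%) than in DN50 (21.6% to 27.4%).

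Ratios between members within a library are free of library scaling, and ask whether the genes differed by 1 common factor. The log2 ratio of FPKM of Glyma07g05410.1 to Glyma09g29800.2 was 0.62, 0.60 and 0.47 in the libraries labelled GmRAV1-ox, against -1.05, -0.31 and -0.99 in DN50. The LHY gene was thus the more abundant of the pair in every library labelled GmRAV1-ox and the less abundant in every DN50 library. The difference of the means was 1.34. Ratios that use Glyma07g05410.1 or Glyma16g01980.3 depend on the uncertain split of the reads these genes have in common. The log2 ratio of Glyma16g01980.3 to Glyma19g45030.1 was 3.39, 3.31 and 3.55 in the libraries labelled GmRAV1-ox, against 2.64, 2.77 and 2.25 in DN50. Between Glyma19g45030.1 and Glyma09g29800.2 the ratio differed by only 0.12, at -1.57 ± 0.14 in the libraries labelled GmRAV1-ox and -1.69 ± 0.03 in DN50 (SD, n = 3 each), although the groups did not overlap. By an exact permutation test, 2-sided, 7 of the 15 pairs reached p = 0.1, the smallest that 3 against 3 libraries allow, and 0 could pass 0.05. Adjusted over the 15 pairs, that p was 0.214.

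Within the groups, most members moved together from library to library. DN50 replicate 2 was the lowest DN50 library for 6 of the 6 members, against 27.8% of all tested genes and 56.6% of those lower at an unadjusted p under 0.05. Replicate 3 was the highest library labelled GmRAV1-ox for 5 of the 6 members. That held for 25.8% of all tested genes and 50.8% of those lower at an unadjusted p under 0.05. After the group means were removed, Pearson's r over the 6 libraries was 0.99 between Glyma19g45030.1 and Glyma09g29800.2, and between 0.81 and 0.92 for the remaining pairs among these and the 2 abundant LHY genes. For Glyma16g34340.1 with those 4 genes it lay between -0.01 and 0.44. Values that use the 2 abundant LHY genes depend on the split of their common reads. These values are descriptions, since the points share libraries and the mean profile of the 6 members correlated with the first principal component at an absolute r of 0.97.

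The nearest relatives outside the 6 were read from the same fit. The LHY-type gene Glyma03g42260.4, which the descriptions left out, had 0.94, 0.88 and 1.39 FPKM in the libraries labelled GmRAV1-ox, against 5.45, 1.54 and 3.64 FPKM in DN50. The groups did not overlap, but DN50 replicate 2 lay just above them. Its estimate was 3.78-fold lower (1.64 to 8.72) and did not pass (adjusted p 0.119 by edgeR). All 4 LHY-type genes therefore had lower values in every library labelled GmRAV1-ox than in any DN50 library, as did 7.88% of all tested genes. Of these LHY-type genes, only Glyma19g45030.1 was called. Glyma16g01980.3 and Glyma07g05410.1 share reads and so are not separate cases. The lower-scoring relatives did not share 1 direction. Glyma02g40800.1, described as myb-like protein H, had 1.31, 1.22 and 7.71 FPKM in the libraries labelled GmRAV1-ox, against 5.80, 3.23 and 11.1 FPKM in DN50, and the groups overlapped. Glyma11g33180.1 (MYB173) had higher values in every library labelled GmRAV1-ox (1.71 to 2.55 FPKM) than in DN50 (0.66 to 1.17 FPKM), an estimate of 0.98 on the log2 scale (edgeR adjusted p 0.264). Glyma14g39130.1 (MYB177) had too few counts to test, 11 in the libraries labelled GmRAV1-ox and 14 in DN50.

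Other genes of the clock were set beside the members. Of 55 tested core clock genes other than the members, 2 were called higher and 2 lower, against 0.122% and 0.579% of all tested genes. At an unadjusted p under 0.05, 3 were higher and 17 lower, against 10.6% and 10.7% of all genes. In 10 all libraries labelled GmRAV1-ox lay above DN50 and in 15 below, against 18.8% and 7.88% of all genes. The median log2 fold change was -0.21, and 0.00 without library scaling. Most estimates of the daytime PRR genes lay on the same side as LHY, but few were called. Of 16 tested PRR genes, which repress LHY and CCA1 in Arabidopsis, 2 fell, both PRR95-like. Glyma19g44970.1 had 5.85, 7.46 and 2.63 FPKM in the libraries labelled GmRAV1-ox, against 16.57, 14.53 and 24.93 FPKM in DN50 (-2.02 ± 0.32 on the log2 scale, edgeR adjusted p 0.0471). Glyma07g05530.1 had 17.22, 19.22 and 10.91 FPKM in the libraries labelled GmRAV1-ox, against 42.35, 27.49 and 44.16 FPKM in DN50 (-1.48 ± 0.25, edgeR adjusted p 0.0490). In both, replicate 3 of the libraries labelled GmRAV1-ox was the lowest of its group, whereas it was the highest for 5 of the LHY and CCA1 genes. Neither was called without library scaling. The PRR median was -0.88, and 15 of 16 estimates were below 0, as were 12853 of the 26272 over all genes. The list includes APRR2-like genes, whose Arabidopsis namesake is not a core clock gene. Some PRR genes also share reads, so that they are not all separate cases. The 4 tested ASG4 genes, of the REVEILLE branch of the LHY family, had estimates from -1.02 to -0.68 and 0 calls.

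Evening genes were mixed. Among 4 tested ELF4-like genes, 2 rose, and the others had log2 fold changes of -0.54 (Glyma17g05860.1) and 0.34. Glyma18g03130.1 had 34.8, 30.9 and 29.3 FPKM in the libraries labelled GmRAV1-ox, against 3.39, 4.96 and 3.67 FPKM in DN50 (2.78 ± 0.31 on the log2 scale, edgeR adjusted p 0.0320). Glyma11g35270.1 had 254.55, 235.37 and 247.67 FPKM in the libraries labelled GmRAV1-ox, against 66.97, 114.08 and 87.69 FPKM in DN50 (1.29 ± 0.21 on the log2 scale, edgeR adjusted p 0.0460). Neither gene's groups overlapped. The counts of both were not whole in any of the 6 libraries, but their sum was whole in each. The counting thus divided some reads between these 2 genes, so that the 2 rises are not separate results. In DN50, Glyma18g03130.1 had only 5.73, 8.07 and 5.99 counts, and the split between the genes is uncertain. Of the 3 TOC1 genes, Glyma06g21120.1 had 16.33, 13.70 and 16 FPKM in the libraries labelled GmRAV1-ox, against 4.70, 7.37 and 7.38 FPKM in DN50, an estimate of 1.08 (log2) with an adjusted p of 0.0640 by edgeR. The other TOC1 genes had log2 fold changes of -0.01 (Glyma05g00880.1) and 0.26 (Glyma04g33110.1). The counts of Glyma06g21120.1 and Glyma04g33110.1 were not whole in any of the 6 libraries, but their sum was whole in each. Some reads were thus divided between these TOC1 genes, and the split is uncertain. The 5 ELF3 genes ranged from -0.08 to 0.39 and the 6 tested LUX genes from -0.48 to 0.96, with 0 calls in both lists. Blue-light receptors of the ZEITLUPE and FKF1 type, which act on protein stability of clock factors, ranged from -0.55 to 0.00 over 6 genes with 0 calls. The 10 casein kinase II genes ranged from -0.58 to 0.31, also with 0 calls. The single XAP5 gene had -0.22.

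**Figure D4:**
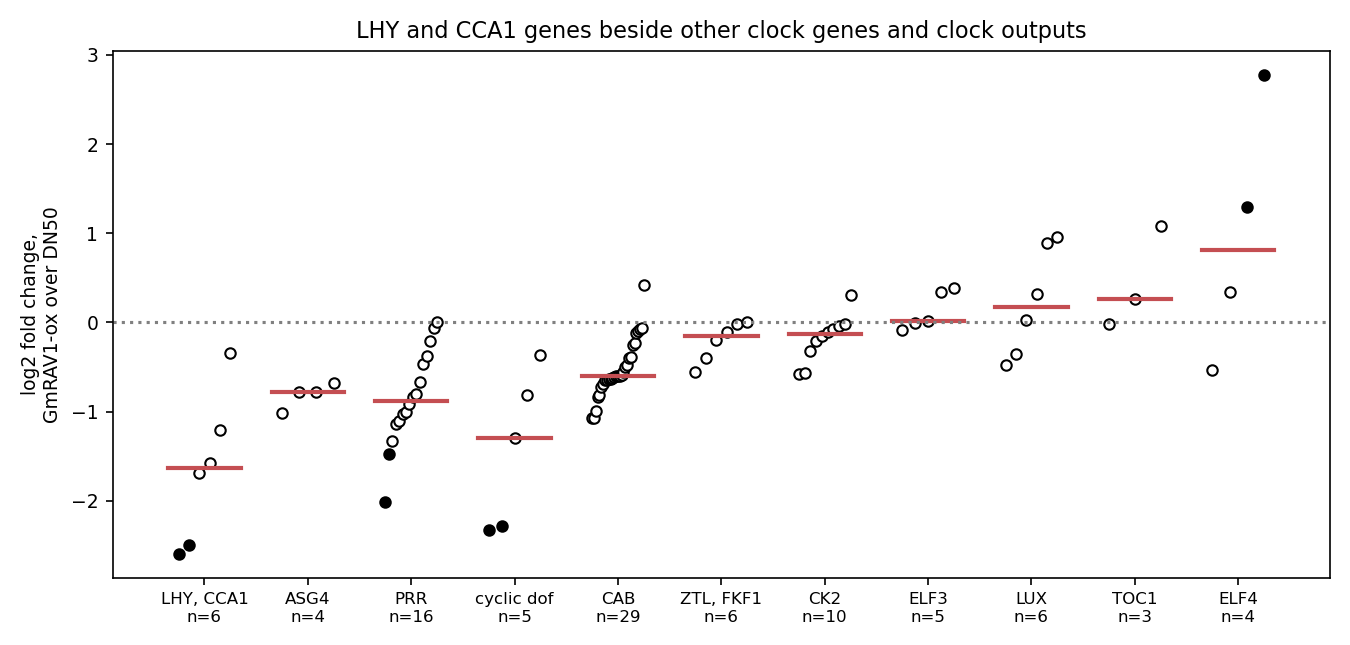
Log2 fold change of the libraries labelled GmRAV1-ox over DN50 for every tested gene (points) in the LHY and CCA1 set, other clock lists and 2 output lists (cyclic dof and CAB), with n tested below each name. Filled points passed an adjusted p of 0.05 by edgeR and red lines are medians, from -1.63 for LHY and CCA1 to 0.82 for ELF4.

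Outputs of the morning genes were described in the same way. Cyclic dof factors repress flowering genes and are morning-expressed in Arabidopsis. Of 5 tested, 2 fell: Glyma05g00970.1 had 3.38, 2.88 and 2.93 FPKM in the libraries labelled GmRAV1-ox, against 10.8, 12.4 and 16.6 FPKM in DN50 (-2.28 ± 0.21 on the log2 scale, edgeR adjusted p 0.0203). Glyma17g10920.1 had 1.34, 1.39 and 1.52 FPKM in the libraries labelled GmRAV1-ox, against 5.93, 5.44 and 7.71 FPKM in DN50 (-2.33 ± 0.26 on the log2 scale, edgeR adjusted p 0.0320). Over all tested genes, 0.579% were called lower. The groups of both genes lay far apart, and all 5 estimates were below 0. The counts of Glyma05g00970.1 and Glyma17g10920.1 were not whole in 5 libraries each, but their sum was whole in every library. The counting thus divided some reads between these 2 genes, so that the 2 falls are not separate results. Of 29 CAB genes, 0 passed the test, although 28 estimates were below 0, as were 12853 of the 26272 over all genes. The CAB median was -0.60, and -0.43 without library scaling. Without scaling, Glyma06g04280.1, Glyma09g07310.1, Glyma09g08260.1 and Glyma15g19810.1 moved above 0. The counts of most CAB genes were not whole, so that the 29 are not all separate cases. The glycine-rich RNA-binding protein 7 gene Glyma06g01470.1, a clock output in Arabidopsis, overlapped between the groups, at 261, 288 and 393 FPKM in the libraries labelled GmRAV1-ox and 378, 298 and 389 FPKM in DN50.

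Genes elsewhere in the genome with the profile most like that of the 6 members were found by Pearson's r over the 6 libraries, among 13010 with a mean of at least 5 FPKM in the higher group and an informative description. The highest were Glyma15g13090.1 (ferric reduction oxidase 7, r = 0.998), Glyma15g05580.1 (cytochrome P450 71D10), Glyma05g32640.1 (a purine synthesis enzyme), Glyma06g13600.1 (protein phosphatase 2C 57), Glyma08g09160.1 (the chloroplast protease FTSH 2) and Glyma17g20020.1 (zeaxanthin epoxidase, r = 0.997). The most opposite were Glyma08g07490.1 (arabinogalactan protein 1, r = -0.996), Glyma19g37780.1 (60S acidic ribosomal protein P2), Glyma06g02090.1 (TSR1), Glyma17g10820.1 (myb-related protein 306), Glyma06g05200.1 (squalene monooxygenase) and Glyma01g25270.2 (auxin response factor 9, r = -0.994). Such values are common in these libraries: 566 of the 13010 genes had r of at least 0.95 and 328 had r of -0.95 or less. With Glyma18g05050.1 left out of the profile, a choice made after its values were seen, a clock gene came first, the PRR73-like Glyma11g15560.1 (r = 0.999). It had 45.9, 48.7 and 53.4 FPKM in the libraries labelled GmRAV1-ox, against 82.7, 72.1 and 92.9 FPKM in DN50. Its log2 fold change of -0.92 did not pass the test (edgeR adjusted p 0.0792). How many genes reach such an r with this shorter profile was not counted.

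**Figure D5:**
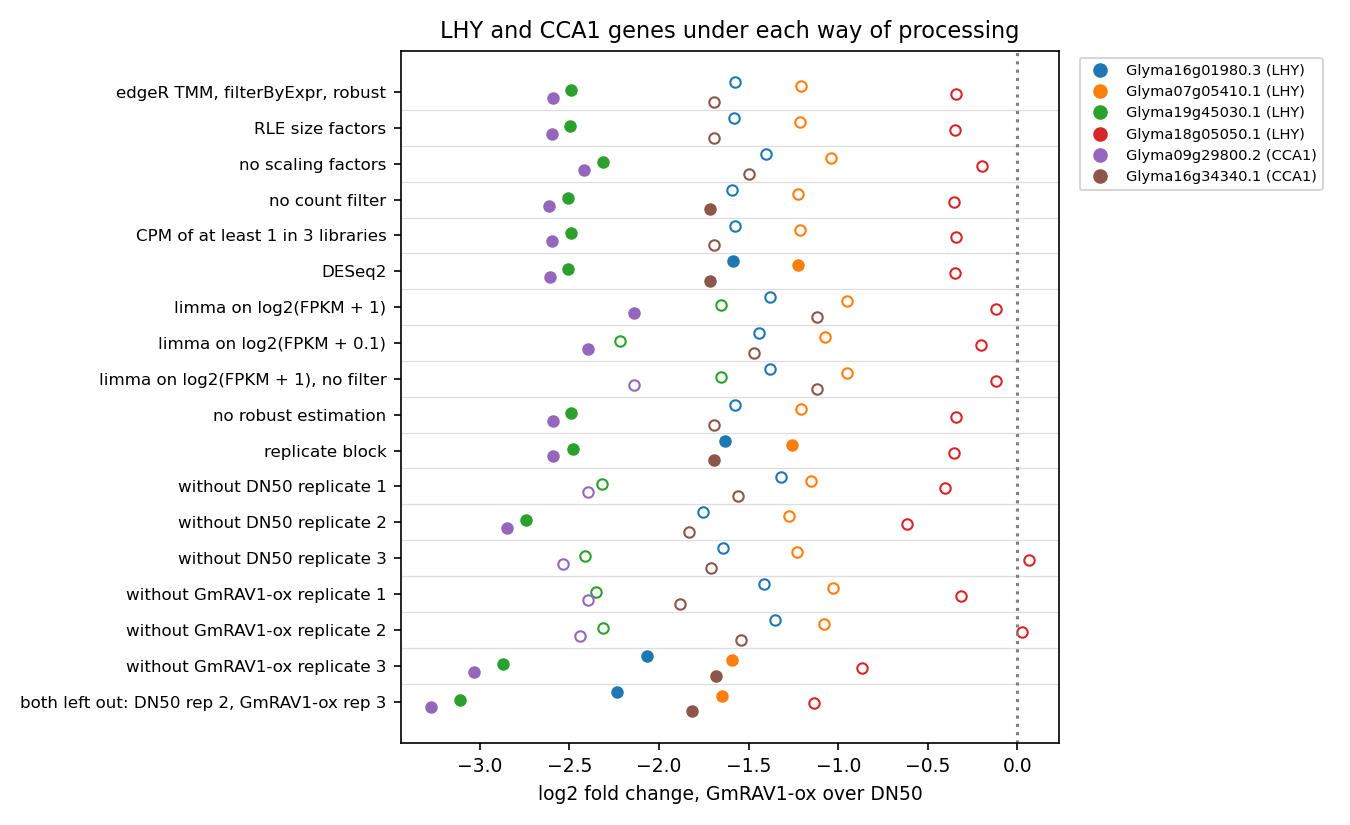
Log2 fold change of each LHY and CCA1 gene (colours) under the main processing (top) and 17 alternatives. Filled points passed an adjusted p of 0.05; Glyma19g45030.1 and Glyma09g29800.2 lie farthest left in every case, and Glyma18g05050.1 was never called and crossed 0 in 2 cases.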

How the data were processed

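Each library came with a deposited table giving length, expected count and FPKM per gene model, per the file headers. The expected counts are estimates, as deposited, and 29.6% to 30.5% of those listed were not whole. The series-wide table deposited by the authors held the same FPKM values. The submitters' processing notes name TopHat and Cufflinks; the genome build was not given in the sources used here, nor were versions. All lengths were multiples of 3, so they were read as coding lengths.

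Counts were rounded, filtered with filterByExpr (26272 of 36827 genes left), scaled by TMM and tested with edgeR 4.0.16 in R 4.3.3 (robust quasi-likelihood, 2-sided). Benjamini-Hochberg adjustment covered every tested gene, and an adjusted p under 0.05 was called. Ranges after a fold change are its 95% intervals. Alternatives were DESeq2 1.42.0, limma 3.58.1 on log2(FPKM + 1) or log2(FPKM + 0.1), other filters and scaling, a replicate block and leaving out libraries. The fits were tested on simulated data. For correlations, CPM were put on a log2 scale after a prior count of 2 was added. Clock lists came from words in the deposited descriptions. Named genes were the 6 members, each called clock gene and the 6 genes at either end of the likeness order; genes named beyond these were chosen after their values were seen. Members, lists and alternatives were chosen with earlier results of these data known. Symbols came from a RefSeq gene table (Glycine_max_v4.0), by protein accession for 4 members and by neighbouring genes for 2. Promoter and protein sequences were not analysed here.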

Additional observations from a re-analysis of the deposited data

How the results depend on the processing

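Of the 6 members, 5 kept their direction under all 17 alternatives. Glyma18g05050.1 was never called, and its log2 fold change was 0.066 without DN50 replicate 3 and 0.02 without replicate 2 of the libraries labelled GmRAV1-ox, in a range of -0.87 to 0.066 over the leave-outs of 1 library. Members called lower are given here with all genes called lower in brackets. They numbered 5 with DESeq2 (3.43%), 5 with the replicate block (3.57%) and 3 with no count filter (231 of 36796 genes). By limma, 1 was called on log2(FPKM + 1) (90 of 27744 genes) and 1 on log2(FPKM + 0.1) (54 of 27744 genes). With no filter limma called 0 (0.0136%). Over the leave-outs 0 to 5 were called (0 to 2672 genes). Glyma19g45030.1 lost its call by limma, at -1.65 with a pseudocount of 1 (with and without a filter) and -2.22 with 0.1, and ranged from -2.87 to -2.31 over the leave-outs. Glyma09g29800.2 lost it by limma with no filter (-2.14), with leave-outs from -3.03 to -2.39. Glyma16g01980.3 gained a call with DESeq2 (-1.59) and the replicate block (-1.63), with leave-outs from -2.07 to -1.32. Glyma07g05410.1 gained one with DESeq2 (-1.22) and the block (-1.26), with leave-outs from -1.59 to -1.03. Glyma16g34340.1 gained one with no count filter (-1.71), DESeq2 (-1.71) and the block (-1.70), with leave-outs from -1.88 to -1.54.

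Over all genes, the main test called 32 higher and 152 lower. These calls were 84 and 149 without scaling, 62 and 231 with no count filter, and 765 and 1016 by DESeq2. By limma they were 43 and 90 with a pseudocount of 1, 20 and 54 with 0.1, and 6 and 5 with no filter. With the block they were 682 and 939. They ranged from 0 to 2383 higher and 0 to 2672 lower over the leave-outs. Core clock genes called lower, 2 by the main test, were 1 with RLE factors, 0 without scaling, 4 with no count filter, 10 with DESeq2, 0 by limma in its 3 forms, 1 with no robust estimation, 8 with the block and 0 to 11 over the leave-outs. Those called higher, 2 by the main test, were 3 without scaling, with DESeq2 and with the block. They were 1 by limma with no filter and 0 to 3 over the leave-outs. The cause of these shifts was not tested.

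Leaving out DN50 replicate 2 together with replicate 3 of the libraries labelled GmRAV1-ox removes the libraries that lie nearest the other group, which widens differences by construction. It gave 3801 genes higher and 3578 lower, 15 clock genes and 5 members called lower, and log2 fold changes of -2.24 for Glyma16g01980.3, -1.65 for Glyma07g05410.1, -1.81 for Glyma16g34340.1, -3.11 for Glyma19g45030.1, -3.27 for Glyma09g29800.2 and -1.14 for Glyma18g05050.1, beside 13.1% of all genes called lower. The labels do not say whether the replicate numbers pair the samples. Deviations from the group means correlated at -0.30, 0.40 and 0.30 for replicates 1, 2 and 3. Between unlike numbers they correlated at -0.50 to 0.37. Deviations within a group sum to 0, so that these values cannot decide whether the samples are paired. The counts of Glyma18g05050.1, 5 to 19 per library, limit what can be seen of that gene.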

Other observations

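Each of the 4 LHY-type genes lies beside a PRR95-like gene, by the numbers in the identifiers. This was looked for after the values were known. Between Glyma16g01980.3 and Glyma16g02050.1 the tables list 4 gene models, between Glyma07g05410.1 and Glyma07g05530.1 there are 8, between Glyma19g45030.1 and Glyma19g44970.1 there are 3, and between Glyma03g42260.4 and Glyma03g42220.1 there are 3. The other 3 members have no PRR95-like gene near them. All 4 of these PRR95-like neighbours had lower FPKM in every library labelled GmRAV1-ox than in any DN50 library, as did 7.88% of all tested genes. Their log2 fold changes were -1.02 (Glyma16g02050.1, edgeR adjusted p 0.0525), -1.48 (Glyma07g05530.1, 0.0490), -2.02 (Glyma19g44970.1, 0.0471) and -1.33 (Glyma03g42220.1, 0.152). Only Glyma07g05530.1 and Glyma19g44970.1 were called. The 2 PRR95-like genes far from any LHY-type gene, Glyma04g40640.1 and Glyma06g14150.1, had -0.66 and -1.14, with groups that likewise did not overlap. The counts of these 2 genes were not whole in any library, but their sum was whole in each. They thus share reads and are not separate cases. Glyma16g02050.1 and Glyma07g05530.1 also shared fractions of reads in 2 libraries.

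The genes in between varied in direction. Of the 18 listed there, 11 were tested and none passed edgeR's test. At an unadjusted p under 0.05, 2 were lower and 1 higher, against 10.7% and 10.6% of all tested genes. Their log2 fold changes ran from -1.01 for Glyma03g42250.1, a flavonol synthase, to 1.99 for Glyma16g02020.1, a bHLH70-like transcription factor, with a median of -0.36. A bHLH67-like gene between the pair on chromosome 7, Glyma07g05500.1, had 1.69 (SE 0.73, adjusted p 0.25), and for both bHLH genes the groups overlapped.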
